A study of Homo sapiens with 6 samples.

Results

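MYC and 41 nucleolar factors that make ribosomes were described across 6 libraries of THP-1 macrophages. The 42 genes are the rows of the deposited gene table that carry the symbols of RNA polymerase I subunits and factors, small nucleolar ribonucleoprotein (snoRNP) proteins, processing factors of the small and large ribosomal subunits, and MYC. All 42 were found, each in a single row, among 35009 genes. THP-1 is a human monocytic leukaemia line that can be turned into macrophage-like cells. All 6 libraries came from such macrophages exposed to oxidised low-density lipoprotein (ox-LDL), which loads macrophages with cholesterol. The 3 control libraries carry the genotype label control, and the 3 siMCT4 libraries carry the label MCT4 deficiency. MCT4 is a transporter of lactate, encoded by SLC16A3. The labels do not say whether the controls were given a non-targeting siRNA, so loss of MCT4 and exposure to an siRNA cannot be told apart. Nor is it stated that each library is its own culture. The p-values therefore measure the spread between these libraries, which may be technical.

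Ribosomes are assembled in the nucleolus. RNA polymerase I transcribes the ribosomal DNA into a long precursor RNA. Box C/D and box H/ACA snoRNPs modify that precursor, and processing factors fold and cut it into the RNAs of both subunits while ribosomal proteins join. MYC, a transcription factor that binds DNA together with its partner MAX, is known for activating many genes of this pathway, in macrophages as in other growing cells. The messenger RNAs of these proteins were measured here by sequencing of polyadenylated RNA. Ribosomal RNA, ribosomes and proteins were not.

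The targeted gene was low in every siMCT4 library. SLC16A3 stood at 115, 100.6 and 108 CPM in controls 1, 2 and 3 and at 10.8, 11.1 and 13.4 CPM in the siMCT4 libraries, where CPM is counts per 1000000 counts with TMM scaling. The log2 change was -3.20 (SE 0.102) and the adjusted p, from edgeR's quasi-likelihood fit with Benjamini-Hochberg correction over 19944 tested genes, was 1.12e-06. Every adjusted p below comes from that fit unless another tool is named. Library totals ran from 61880619 to 69181938 counts. siMCT4 library 3 stood apart from siMCT4 libraries 1 and 2. Over genes with at least 20 counts in the pair, the squared difference averaged 53.6 and 61.3 times the counting noise in its pairs with them, against 9.13 between libraries 1 and 2 and 12.7 to 17.5 between controls. Results that rest on that library are therefore given with and without it. Values for library 3 alone set that single library against the 3 controls. The spread then comes from the controls alone and the lone library is assumed to vary like them, so such a value describes the library and not the condition.

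More of these genes were higher than lower in siMCT4 macrophages, and the changes were small. Of the 42 genes 17 rose, 2 fell and 23 did not pass an adjusted p of 0.05. The 17 make 40.5% of the genes, where 20.6% of all tested genes were called higher. The 2 that fell make 4.76%, where 20.8% of all tested genes were called lower. The median log2 change was 0.14, beside -0.01 over all tested genes, and single genes ran from -0.52 for BOP1 to 0.99 for NOP2. All 3 siMCT4 CPM values lay above all 3 control values in 20 of the 42 genes, where 27.2% of all tested genes did so. They lay below them in 4 of the 42, where 27.8% of all tested genes did so. In such bulk libraries, fewer cells of a type and less RNA per cell cannot be told apart. Under median-ratio size factors in place of TMM, 17 were again called higher and 2 lower. With limma on log2(TPM + 1), which differs in tool, transform, scaling and genes tested, 22 of the 42 were called higher and 0 lower. The corresponding shares of all genes were 21.1% and 9.26%, and the median log2 change was 0.33 with the median of all genes shifted to 0.11.

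**Figure D1:**
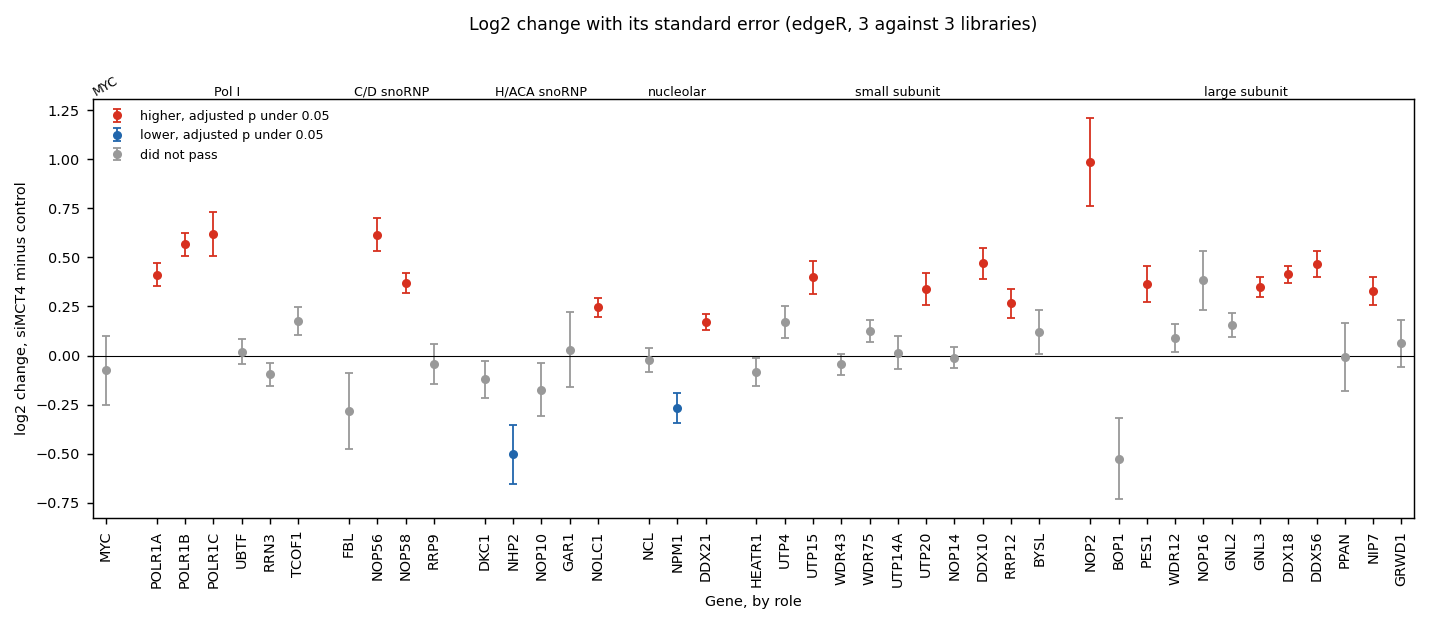
Log2 change (siMCT4 minus control, vertical axis) of the 42 genes, ordered by role along the horizontal axis; points are edgeR estimates over 3 against 3 libraries and bars are standard errors. The 17 genes called higher lie between 0.17 and 0.99, NHP2 and NPM1 are called lower, and MYC lies near 0 with a wide error.

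Per-length levels spread widely among the genes. FPKM, a fragment count scaled by gene length and library size, allows genes to be set side by side. NPM1 (66.6 ± 3.25 FPKM), NCL (52.8 ± 0.907 FPKM) and NOP10 (46.0 ± 8.69 FPKM; mean ± SD, n = 3 controls here) had the highest control levels, those of NCL and NOP10 lying within their spread of each other. DDX10 (0.821 ± 0.0495 FPKM) and UTP20 (1.23 ± 0.0269 FPKM) had the lowest. The catalytic RNA polymerase I subunits POLR1A and POLR1B stood at 3.16 ± 0.145 and 2.91 ± 0.0935 FPKM, less than the level of MYC at 10.7 ± 0.251 FPKM.

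**Figure D2:**
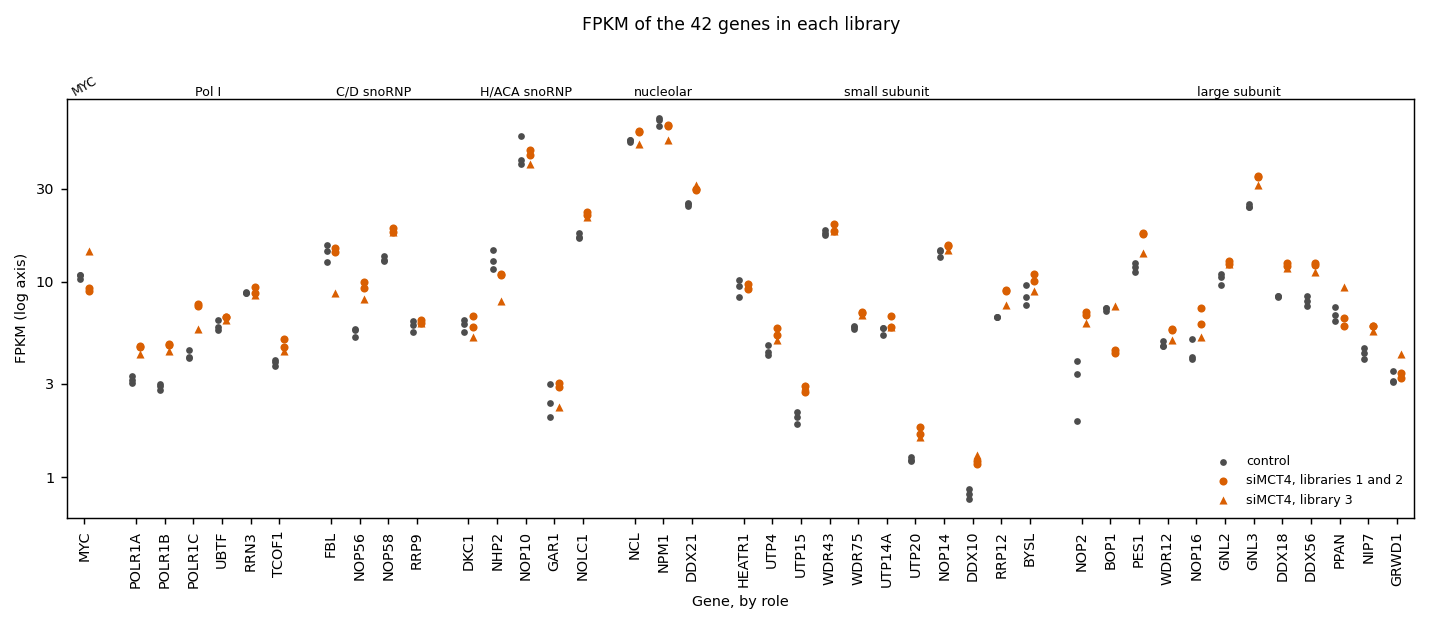
FPKM (log axis) of each of the 42 genes in each of the 6 libraries, by role; grey points are controls, orange points siMCT4 libraries 1 and 2, orange triangles siMCT4 library 3. Levels run from about the 0.821 FPKM of DDX10 to the 66.6 FPKM of NPM1 in control means; the triangle of library 3 stands away from the other siMCT4 points in MYC, BOP1, PPAN, FBL and NHP2.

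MYC itself (ENSG00000136997) was split between the siMCT4 libraries. Its controls stood at 55.6, 52.6 and 55.9 CPM. The siMCT4 libraries stood at 42.9, 44.1 and 68.7 CPM. Libraries 1 and 2 were thus below every control and library 3 above every control. Over all libraries the means were 54.7 ± 1.83 CPM in controls and 51.9 ± 14.6 CPM in siMCT4 (SD, n = 3 each). The log2 change of -0.08 did not pass (SE 0.174, adjusted p = 0.764), and the exact two-sided permutation test over the 20 assignments of the 6 libraries gave p = 1, where 0.1 is the smallest it can give. Without siMCT4 library 3, MYC was called lower (-0.31, adjusted p = 0.0018), and library 3 alone stood above the controls by 0.35 on the log2 scale (adjusted p = 0.0074, resting on the spread of the controls). Its sign was opposite to the reported value in 7 of 18 alternative settings.

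The DNA sequence bound by MYC and MAX is the E-box, and its canonical form CACGTG reads the same on both strands. RefSeq promoter windows of GRCh38.p14, 250 bases before to 50 after a gene's start, were matched by symbol for 35 of the 42 genes. CACGTG occurred in 15 of these 35 (42.9%), against 12.0% of 12344 tested genes with a window and 8.77% of all 27305 genes in the promoter table. It was held by 5 of 13 genes called higher, 10 of 20 not called and 0 of 2 called lower. In the 250 bases before the start alone, it was held by 5 of the 35 (14.3%), against 10.7% of tested genes, so most matches lay at or just after the start. A match describes the letters and shows no binding. The matches of the 5 genes that rose are printed with their surroundings, 5′ to 3′ on the strand of the gene, with the E-box in capitals. They belong to GNL3 (chr3:52686026-52686055, + strand, 6 bases after the RefSeq start), DDX21 (chr10:68956604-68956633, + strand, 31 bases before a listed start), NOP2 (chr12:6568242-6568268, - strand, 35 bases after), UTP20 (chr12:101280083-101280112, + strand, 10 bases before) and PES1 (chr22:30591880-30591909, - strand, 13 bases after). FBL (chr19:39846356-39846385, - strand, 6 bases after) and NOP14 (chr4:2963374-2963403, - strand, 15 bases after) are shown beside them as genes that hold the motif and did not pass the test.
GNL3: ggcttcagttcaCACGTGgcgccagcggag
DDX21: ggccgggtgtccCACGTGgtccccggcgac
NOP2: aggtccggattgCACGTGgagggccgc
UTP20: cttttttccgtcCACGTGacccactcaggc
PES1: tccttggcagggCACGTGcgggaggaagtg
FBL: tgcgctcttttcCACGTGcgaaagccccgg
NOP14: tccgcggcccggCACGTGtcttagggtagc
For UTP20, whose start in the deposited table is also the RefSeq start, the whole 250 bases before it (chr12:101279855-101280104, + strand) are given to show that the E-box sits at their very end.
UTP20: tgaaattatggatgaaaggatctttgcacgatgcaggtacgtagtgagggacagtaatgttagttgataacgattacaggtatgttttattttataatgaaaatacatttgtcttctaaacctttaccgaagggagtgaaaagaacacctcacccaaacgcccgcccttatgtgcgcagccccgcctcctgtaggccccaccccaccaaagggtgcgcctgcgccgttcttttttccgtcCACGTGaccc

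All 3 RNA polymerase I subunit genes among the 42 rose, and the 3 factors that work with the polymerase did not pass. POLR1A, which encodes the largest, catalytic subunit (ENSG00000068654; chromosome 2, 86020216 to 86106155, - strand), stood at 73.0, 68.6 and 67.2 CPM in controls and 94.0, 96.3 and 87.4 CPM in siMCT4 (log2 change 0.41, SE 0.0577, adjusted p = 0.0011). POLR1B, the second catalytic subunit (ENSG00000125630; chromosome 2, 112541915 to 112577150, + strand), stood at 29.6, 29.8 and 28.6 CPM in controls and 44.2, 44.8 and 41.2 CPM in siMCT4 (log2 change 0.57, SE 0.0593, adjusted p = 0.00026). The groups did not overlap in either gene. POLR1C, a subunit shared with RNA polymerase III, stood at 25.0, 27.2 and 25.6 CPM in controls and 43.9, 42.7 and 32.9 CPM in siMCT4, with library 3 lower than libraries 1 and 2 but still above every control. Its log2 change was 0.62 (SE 0.113, adjusted p = 0.0039). The gene's interval overlaps XPO5 and YIPF3 on the opposite strand, which held 390% and 268% of its counts, and the strand setting of the counting is not given in the sources used here.

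None of the 3 factors that act on the ribosomal DNA passed. UBTF, which binds the ribosomal DNA promoter, stood at 0.02 on the log2 scale (adjusted p = 0.832) and its groups overlapped. RRN3, which brings the polymerase to the promoter, had -0.10 (adjusted p = 0.224), all siMCT4 libraries lying just below the controls. PDXDC1 on the opposite strand spans RRN3 and held 792% of its counts. The 4 listed RRN3 pseudogenes held 59.6% as many counts, so reads may be split between them. TCOF1, the treacle protein that links transcription to processing, had 0.18 (adjusted p = 0.0824), with 51.0, 46.7 and 50.5 CPM in controls and 60.1, 54.9 and 52.4 CPM in siMCT4, so that the groups did not overlap. TCOF1 passed as higher without siMCT4 library 3 (0.24) and in 7 of the 18 alternative settings, while neither UBTF nor RRN3 passed in any of them.

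Among the box C/D snoRNP genes, those of the paired scaffold proteins rose and that of the enzyme did not pass. These particles guide 2′-O-methylation of ribosomal RNA and, as the U3 particle, its early cleavage. NOP56 (ENSG00000101361; chromosome 20, 2652593 to 2658393, + strand) stood at 29.1, 31.0 and 32.1 CPM in controls and 51.3, 47.7 and 42.1 CPM in siMCT4 (log2 change 0.61, SE 0.0846, adjusted p = 0.00099). NOP58, its partner in the particle (ENSG00000055044; chromosome 2, 202265736 to 202303433, + strand), stood at 47.0, 49.0 and 47.7 CPM in controls and 63.8, 60.8 and 60.9 CPM in siMCT4 (log2 change 0.37, SE 0.0498, adjusted p = 0.00091). The siMCT4 values of both genes lay above all controls. FBL, fibrillarin, the methyltransferase of the same particle, stood at 30.4, 34.2 and 37.3 CPM in controls and 31.4, 32.9 and 19.4 CPM in siMCT4. Only library 3 lay below the controls, and the log2 change of -0.28 did not pass (adjusted p = 0.285). Library 3 alone lay at -0.79 against the controls (adjusted p = 0.003, resting on the spread of the controls), and without it the value for FBL was -0.05 (adjusted p = 0.668). RRP9, the U3-specific protein, stood at -0.04 (adjusted p = 0.772). Differences between these box C/D genes were not tested.

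The box H/ACA particle, which converts uridine to pseudouridine, had no core member that rose. DKC1, dyskerin, the pseudouridine synthase that telomerase RNA also needs, stood at -0.12 on the log2 scale (adjusted p = 0.352). NOP10 and GAR1, small core proteins, had -0.17 (adjusted p = 0.347) and 0.03 (adjusted p = 0.918). NHP2 (ENSG00000145912; chromosome 5, 178149463 to 178153894, - strand), the remaining core protein, fell. It stood at 21.1, 19.0 and 24.4 CPM in controls and 16.7, 16.6 and 12.3 CPM in siMCT4 (log2 change -0.50, SE 0.148, adjusted p = 0.0294). The groups did not overlap, but NHP2 was called in only 8 of 18 alternative settings. The call was lost when control 1 or 3 was dropped (adjusted p = 0.0768 and 0.105). It was also lost on dropping siMCT4 library 1 or 2 (adjusted p = 0.0508 and 0.0505), with no low-count filter (0.0539), with the replicate block (0.08; 0.0827 with GC correction too) and in limma on FPKM or TPM. The values ran from 0.00497 to 0.197 over all alternatives. NHP2 overlaps RMND5B on the opposite strand, which held 135% of its counts. NOLC1, the chaperone that carries both kinds of snoRNP, rose from 76.5 ± 2.74 to 90.7 ± 2.41 CPM (SD, n = 3; log2 change 0.25, adjusted p = 0.0057). With the replicate block and GC correction together NOLC1 missed the threshold (adjusted p = 0.0698).

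Of the 3 nucleolar protein genes NCL, NPM1 and DDX21, the first did not pass, the second fell and the last rose. NCL, nucleolin, a nucleolar RNA-binding protein, stood at 517, 523 and 539 CPM in controls and 538, 544 and 472 CPM in siMCT4, with overlapping groups and a log2 change of -0.02 (adjusted p = 0.796). NPM1, nucleophosmin, which helps form the outer layer of the nucleolus, stood at 586, 616 and 652 CPM in controls and 539.8, 544 and 459 CPM in siMCT4. All siMCT4 libraries lay below the controls, and the log2 change was -0.27 (SE 0.0755, adjusted p = 0.0261). Dropping control 2 or 3 (adjusted p = 0.0764 and 0.0852) or siMCT4 library 1 (0.0569) ended the call of NPM1, as did the replicate block (0.0676), and in limma on TPM the value was -0.07 (adjusted p = 0.644). The range over all alternatives was 0.00333 to 0.644. Its 19 listed pseudogenes held 2.65% as many counts. DDX21, an RNA helicase that acts both in rDNA transcription and in processing, rose from 258.5 ± 2.05 to 291 ± 10.1 CPM (SD, n = 3; log2 change 0.17, adjusted p = 0.0139). Its call was lost on dropping control 2 or 3 (adjusted p = 0.0628 and 0.0591), with the replicate block and with GC correction, and adjusted p ran from 0.00277 to 0.192 over all alternatives.

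In the small-subunit processome, the large assembly that cuts and folds the 18S precursor, 4 of 11 genes rose (36.4%, beside 20.6% of all tested genes) and none fell (beside 20.8%). The other 7 did not pass. DDX10, a DEAD-box helicase (ENSG00000178105; chromosome 11, 108665058 to 108940999, + strand), stood at 16.6, 17.5 and 15.8 CPM in controls and 21.9, 22.7 and 24.4 CPM in siMCT4 (log2 change 0.47, SE 0.0782, adjusted p = 0.0025). UTP15, of the subcomplex that first joins the nascent RNA, stood at 14.5, 15.1 and 13.3 CPM in controls and 19.3, 18.0 and 19.3 CPM in siMCT4 (log2 change 0.40, adjusted p = 0.0072). Both genes had siMCT4 values above every control. UTP20, a large scaffold protein, rose by 0.34 (adjusted p = 0.0124), from 13.8 ± 0.193 to 17.6 ± 1.03 CPM (SD, n = 3). RRP12, an export factor of pre-ribosomes, rose by 0.27 (adjusted p = 0.0217), with 62.9, 62.4 and 63.9 CPM in controls and 80.3, 79.4 and 67.8 CPM in siMCT4. RRP12 missed the threshold when any library but siMCT4 library 3 was dropped (adjusted p from 0.0537 to 0.0641). Of the 18 alternative settings, RRP12 was called in 11 and UTP20 in 16. In library 3 the log2 ratio to the control mean was 0.10 for RRP12 and 0.26 for UTP20. Of the other genes among the 42 whose proteins join that subcomplex, none passed: UTP4 had 0.17 (adjusted p = 0.135), WDR75 0.13 (adjusted p = 0.103, groups not overlapping), WDR43 -0.04 (adjusted p = 0.537) and HEATR1 -0.08 (adjusted p = 0.399). UTP14A, an activator of the helicase DHX37, had 0.02, NOP14, a processome scaffold, -0.01, and BYSL, bystin, a late-acting factor of the small subunit, 0.12, all with overlapping groups.

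Large-subunit factors held the largest single rise among the 42 genes. Of the 12, 6 rose (50.0%, beside 20.6% of all tested genes) and none was called lower (beside 20.8%). NOP2, which methylates a cytosine of 28S RNA (ENSG00000111641; chromosome 12, 6556863 to 6568332, - strand), stood at 20.8, 17.7 and 10.5 CPM in controls and 32.8, 34.1 and 30.1 CPM in siMCT4. Control 3 lay far below the other controls, but every siMCT4 library lay above all of them. Its fold was 1.98 (log2 change 0.99, SE 0.226, adjusted p = 0.0108), and without control replicate 3 the log2 change was 0.75 (adjusted p = 0.0039). With library 3 alone NOP2 missed the threshold (adjusted p = 0.0653). An unnamed gene on the same strand (ENSG00000285238) overlaps NOP2 over 11447 bases and held 22.0% of its counts.

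The large-subunit helicases DDX18 and DDX56 and the GTP-binding protein GNL3 rose, and the GTPase GNL2 did not pass. DDX18 (ENSG00000088205; chromosome 2, 117814691 to 117832377, + strand) stood at 73.2, 73.3 and 74.9 CPM in controls and 101.3, 97.8 and 95.7 CPM in siMCT4 (log2 change 0.41, SE 0.0447, adjusted p = 0.00031). The helicase DDX56 stood at 34.9, 32.6 and 31.4 CPM in controls and 46.4, 47.4 and 42.9 CPM in siMCT4 (log2 change 0.47, adjusted p = 0.0013). GNL3, nucleostemin, a nucleolar GTP-binding protein, stood at 87.7, 89.4 and 88.1 CPM in controls and 115, 117 and 105 CPM in siMCT4 (log2 change 0.35, adjusted p = 0.0016). In these genes the gap between the groups was wider than the range within either. NIP7, a factor of ribosomal RNA precursor processing, rose by 0.33 (adjusted p = 0.0083), but not with library 3 alone (adjusted p = 0.0648). GNL2, a GTPase that acts before export of the large subunit, had 0.16 (adjusted p = 0.0728), all siMCT4 values lying above the controls. GNL3 overlaps PBRM1 and GLT8D1 on the opposite strand, which held 68.0% and 24.3% of its counts. NIP7 overlaps COG8 on the opposite strand, which held 72.9% of the NIP7 counts.

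The PES1, BOP1 and WDR12 proteins form a stable complex needed for maturation of the large subunit, and their messenger RNAs did not move together. PES1 stood at 63.1, 59.6 and 57.6 CPM in controls and 82.3, 83.0 and 66.5 CPM in siMCT4, a rise of 0.36 (SE 0.0924, adjusted p = 0.0167) that did not pass with library 3 alone (adjusted p = 0.143) or on dropping control 2, control 3 or siMCT4 library 1 (0.0568, 0.0646 and 0.0533). WDR12 had 0.09 (adjusted p = 0.351). BOP1 stood at 31.6, 31.1 and 30.9 CPM in controls and 17.9, 17.2 and 30.0 CPM in siMCT4, so that libraries 1 and 2 were far below the controls and library 3 just under them. The log2 change of -0.52 did not pass (SE 0.205, adjusted p = 0.0782), while DESeq2 called it lower (adjusted p = 0.021). BOP1 was called lower without library 3 (-0.81, adjusted p = 2.33e-05), had -0.04 with library 3 alone, and was called higher after a correction for GC content (0.19, adjusted p = 0.0333). Of the remaining large-subunit factors, NOP16 had 0.38 (adjusted p = 0.0823), PPAN, a factor of large-subunit precursors, -0.01 (adjusted p = 0.979) and GRWD1, a chaperone of a ribosomal protein, 0.06 (adjusted p = 0.71). PPAN overlaps the read-through gene PPAN-P2RY11, which held 19.8% of its counts.

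Most of the 42 genes were lower in siMCT4 library 3 than in libraries 1 and 2. Library 3 lay below the mean log2 ratio of those libraries in 34 genes and above it in 8. Across the 42 genes, which share these libraries, the difference of library 3 from that mean had a Pearson's r of 0.23 with GC content. The share of all tested genes lying below was not counted, so this is not shown to be particular to the 42. Library 3 lay more than 0.3 on the log2 scale above the mean of the other siMCT4 libraries in 4 genes, MYC, BOP1, PPAN and GRWD1, and more than 0.3 below it in 6, FBL, NHP2, POLR1C, NOP16, GAR1 and PES1. MYC, BOP1, PPAN and GRWD1 have transcripts with a GC content of 58.7%, 65.7%, 63.2% and 61.7%. The 4 members of the whole set at 60% GC or more (BOP1, PPAN, GRWD1 and RRP9) had median log2 ratios to the control mean of -0.18 and -0.14 in libraries 1 and 2 and 0.12 in library 3. For the 14 members under 45% GC these medians were 0.17, 0.15 and 0.18. Across all 42 genes, which share the same libraries, the ratio was only weakly related to GC content (Pearson's r of -0.27, -0.22 and -0.06 in libraries 1, 2 and 3). The part of GC content in these differences was not tested. Without library 3, 23 of the 42 genes were called higher and 4 lower (beside 23.5% and 23.1% of all tested genes). Library 3 alone, against the spread of the controls, gave 14 and 4 (15.0% and 16.2%). The 42-gene medians of libraries 1, 2 and 3 were 0.17, 0.15 and 0.12, beside -0.0101, -0.00955 and -0.0164 over all tested genes.

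**Figure D3:**
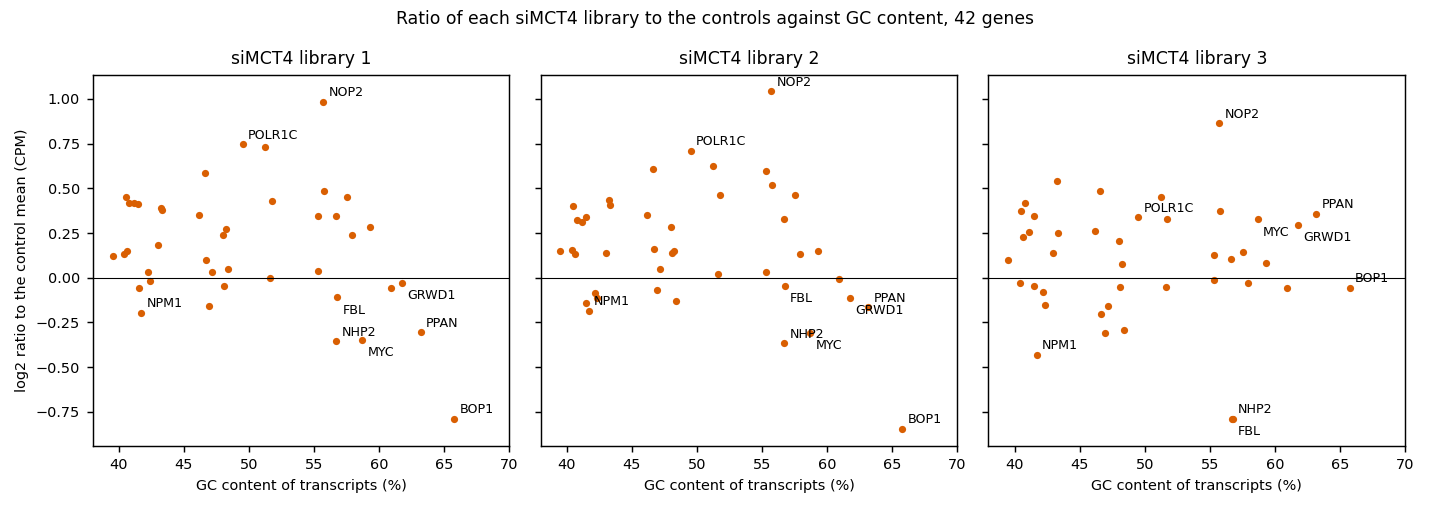
Log2 ratio of CPM to the control mean (vertical axis) against GC content of the transcripts in percent (horizontal axis) for the 42 genes, in siMCT4 libraries 1, 2 and 3 from left to right; each point is a gene. MYC, PPAN and GRWD1 lie below 0 in libraries 1 and 2 and above 0 in library 3, BOP1 rises from about -0.8 to near 0, and FBL and NHP2 lie lowest in library 3.

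Genes of the wider pathway moved both ways. Of 116 other ribosome biogenesis genes, 37 rose (31.9%, beside 20.6% of all tested genes), 19 fell (16.4%, beside 20.8%) and 60 did not pass, with a median log2 change of -0.01; a difference from the 42 genes was not tested. With limma on TPM 5 of these were called lower, against the 19 reported. Small-subunit factors leaned upward, with 19 of 41 higher (46.3%, beside 20.6% of all tested genes) and 5 lower (12.2%, beside 20.8%). Their median was 0.20. NOL11, also of the subcomplex of UTP15, rose by 0.56 (adjusted p = 0.0003). The list further included MPHOSPH10 (log2 change 0.70, adjusted p = 5.6e-05) and UTP6 (0.80, adjusted p = 7.5e-05), both of the processome, and LTV1 (0.67, adjusted p = 9.5e-05), a factor of late small-subunit particles. Large-subunit factors were split, with 12 of 40 higher (30.0%, beside 20.6% of all tested genes) and 10 lower (25.0%, beside 20.8%). Their median was -0.03. BRIX1 (0.74, adjusted p = 0.00012) and FTSJ3 (0.72, adjusted p = 0.00022) rose, and RSL24D1 (-0.82, adjusted p = 2.6e-05), which resembles a ribosomal protein and occupies its place in the precursor, fell. NOP53, a large-subunit factor, had the lowest value, with 85.5, 85.6 and 86.2 CPM in controls and 15.7, 9.03 and 47.2 CPM in siMCT4 libraries 1, 2 and 3 (log2 change -1.84, adjusted p = 0.0285).

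Of 10 other subunits and factors of RNA polymerase I, 1 rose (beside 20.6% of all tested genes) and 3 fell (30.0%, beside 20.8%), with a median of -0.24. POLR1D, like POLR1C a subunit shared with RNA polymerase III, stood at 55.1, 57.7 and 58.0 CPM in controls and 39.7, 36.7 and 39.7 CPM in siMCT4 (log2 change -0.56, SE 0.057, adjusted p = 0.00024). The siMCT4 values lay far below the controls, so the genes of these paired shared subunits changed in opposite directions. POLR1E fell by 0.51 (adjusted p = 0.0254) and TAF1D, of the promoter selectivity factor, by 0.27 (adjusted p = 0.0039). TTF1, which ends rDNA transcription, rose by 0.56 (adjusted p = 0.0014). Of 10 snoRNP assembly factors 2 rose, a share close to the 20.6% of all tested genes, and none fell (beside 20.8%). RUVBL1, an ATPase of the assembly machine, rose by 0.84 (adjusted p = 0.0006) and SHQ1, a dyskerin chaperone, by 0.39 (adjusted p = 0.0048). RPAP3 had 0.11 (adjusted p = 0.116). Of 15 exosome and nuclear ribonuclease genes 3 rose, a share also close to the 20.6% of all tested genes, and 1 fell (beside 20.8%). Among those called were the cofactor C1D (0.56, adjusted p = 0.00098), the nuclease EXOSC10 (0.35, adjusted p = 0.0038) and the core subunit EXOSC4 (-1.26, adjusted p = 0.0403). EXOSC4 was uneven, with 4.15, 3.68 and 11.1 CPM in siMCT4 libraries 1, 2 and 3.

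Of 12 tested partners and antagonists of MYC, 7 fell (58.3%, beside 20.8% of all tested genes) and 3 rose (25.0%, close to the 20.6% of all tested genes). MYCL, a member of the MYC family, fell from 55.2 ± 1.24 to 29.9 ± 0.55 CPM (SD, n = 3; log2 change -0.88, adjusted p = 1.6e-05). Also called lower were MXD3 (-1.77), MXD4 (-0.56), MXI1 (-0.49), MLX (-0.30), MLXIPL (-0.57) and ZBTB17 (-0.76). MXD3 was low, at 0.55, 0.40 and 0.65 CPM in siMCT4. ZBTB17 was uneven, with 8.38, 7.29 and 12.4 CPM in siMCT4 libraries 1, 2 and 3, all below the controls. Transcripts of MYCL, MXD3, MXD4, MLXIPL and ZBTB17 have a GC content of 59.9% to 65.3%, and those of MXI1 and MLX 47.4% and 54.1%. The part of GC content in these calls was not tested. MGA, a MAX-binding repressor, rose by 0.48 (adjusted p = 0.0002), MLXIP, a glucose-sensing relative, by 0.39 (adjusted p = 0.00035), and MAX itself by 0.41 (adjusted p = 0.00076). Of 17 tested genes known as MYC targets outside ribosome biogenesis, 2 were higher (11.8%, beside 20.6% of all tested genes). Of the same 17, 7 were lower (41.2%, beside 20.8%), and the median was -0.23. The transferrin receptor TFRC fell by 0.52 (adjusted p = 2.4e-05) and the spermidine synthase SRM by 0.70 (adjusted p = 0.0018), while the arginine methyltransferase PRMT5 rose by 0.69 (adjusted p = 0.00023). These are lists chosen by function, and what their directions share with MYC was not tested.

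**Figure D4:**
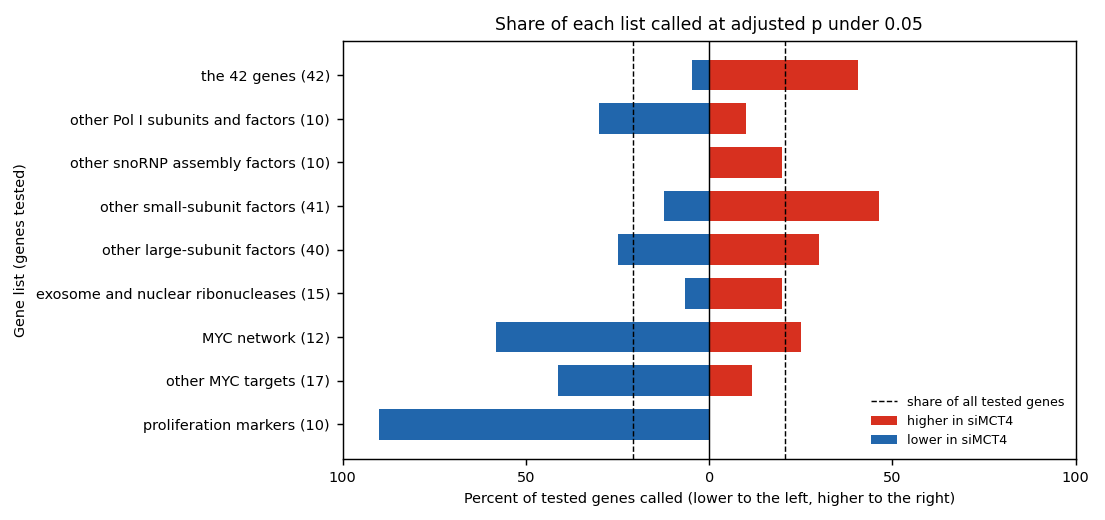
Percent of tested genes called higher (red, right) or lower (blue, left) in siMCT4 for the 42 genes and 8 related lists, with the number tested in brackets; dashed lines give the shares of all tested genes (20.6% higher, 20.8% lower). The 42 genes and the other small-subunit factors reach 40.5% and 46.3% higher, and the proliferation markers 90.0% lower.

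Markers of cell division moved with the same contrast in the other direction. Of 10 proliferation markers 0 rose (beside 20.6% of all tested genes) and 9 fell (90.0%, beside 20.8%). Their summed level was 60.9 to 64.1 FPKM in controls and 15.1 to 24.6 FPKM in siMCT4, with none at 0. BUB1 fell by 2.34, CCNA2 by 2.49 and MKI67 by 3.28 on the log2 scale. Of 10 monocyte and macrophage markers 0 rose (beside 20.6% of all tested genes) and 7 fell (beside 20.8%), with a median log2 change of -0.4. None was at 0, the sum being 1342 to 1367 FPKM in controls and 1237 to 1279 FPKM in siMCT4. CD68 weighed most in that sum and did not pass, nor did ITGAX and SPI1. Single markers changed more than the sum, with log2 changes of -1.99 for CD14, -1.66 for FCGR1A, -1.57 for CD163 and -0.87 for CSF1R. Epithelial markers were listed at 0 in all controls and summed to at most 0.0875 FPKM in siMCT4. Fibroblast markers summed to 0.584 to 0.709 FPKM in controls and 0.762 to 3.29 FPKM in siMCT4. Among them COL1A2, a collagen chain, had 0 counts in every control and in siMCT4 library 3 but 1892 and 1782 counts in siMCT4 libraries 1 and 2, while COL3A1 and DCN had at most 5 counts in any library. Lymphocyte markers summed to 5.68 to 6.05 FPKM in controls and 4.60 to 5.14 FPKM in siMCT4, and their members moved in opposite directions. NCAM1, which makes up most of the sum, fell from 5.42 ± 0.208 to 3.01 ± 0.162 FPKM, and CD79A rose from 0.205 ± 0.0505 to 1.69 ± 0.21 FPKM (SD, n = 3; adjusted p = 2.05e-05 and 0.000143). Endothelial markers, chiefly PECAM1 and VWF, summed to 72.2 to 75.6 FPKM in controls and 43.7 to 45.1 FPKM in siMCT4. Of 5 mitochondrial and nuclear RNAs read as a check of RNA quality, the 3 mitochondrial ones fell, and MALAT1 and NEAT1 did not pass; the list summed to 13084 to 14126 FPKM in controls and 8618 to 9154 FPKM in siMCT4. The part of these shifts in the changes of the 42 genes was not tested.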

How the data were processed

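Polyadenylated RNA of 6 THP-1 macrophage libraries, 3 per group, was sequenced; per the labels' protocols, reads were paired and the preparation marks strand. Trimming and alignment tools cutadapt 1.9 and HISAT2 2.2.1 and the build GRCh38 come from the submitters' processing notes. How genes were counted, with which annotation and strand setting, is not given in the sources used here. The deposited table holds whole-number counts, not normalized, and FPKM values that the authors scaled by gene length and library, per the file headers. Among counts of 2 to 41, the even share was 58.7% to 60.9%, so 2 counts may stand for 1 fragment.

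Counts as deposited were tested with edgeR 4.0.16 (R 4.3.3; quasi-likelihood, TMM, group as the only factor, two-sided, Benjamini-Hochberg over 19944 genes kept by filterByExpr at a minimum count of 10 and total of 15). SE was derived from the log2 change and its F statistic. Ratios per library used CPM plus 0.5. GC content is the median over a gene's GENCODE 29 transcripts. The fits were tested on simulated data with the same spread set for every gene. There edgeR recovered 29.85% of 1.5-fold and 95.5% of 2-fold changes. A gene that did not pass may therefore still have changed by a small amount. Alternatives were DESeq2 1.42.0, limma 3.58.1 on log2(FPKM + 1), log2(FPKM + 0.1) and log2(TPM + 1), median-ratio factors, filters, a GC offset, a replicate block, each library left out, siMCT4 library 3 alone and counts divided by 2.

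Members and lists were chosen with earlier results of these data known. Every member is named, with SLC16A3 and up to 3 genes of smallest adjusted p per related list. MAX, POLR1E, NOP53 and NOL11 were named after their values were seen, as were the lower MYC partners and antagonists other than MYCL. So were single marker genes (CD14, FCGR1A, CSF1R, CD163, CD68, ITGAX, SPI1, PECAM1, VWF, CD79A, NCAM1, COL1A2, COL3A1, DCN). In 13 members an overlapping gene held at least 10% of the member's counts; without the strand setting their reads may not be separable.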

Additional observations from a re-analysis of the deposited data

How the results depend on the processing

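Of the 19 genes called among the 42, 10 kept their direction and call in all 18 alternative settings, 9 lost the call in at least 1, and 0 changed sign. Among genes not called, 12 passed somewhere, and 17 changed sign 64 times between values that did not pass. The count of genes called lower, 2 as reported, was 1 with no low-count filter and 0 in limma on FPKM (either pseudocount) and on TPM. It was 0 to 4 when single libraries were left out, which gave 14 to 23 called higher. The shares of all tested genes moved too. They were 20.6% higher and 20.8% lower as reported, and 23.5% and 23.1% without siMCT4 library 3. A change in these counts is therefore not by itself a change in these genes. The median log2 change, 0.14 as reported, was 0.22 and 0.25 in limma on log2(FPKM + 1) and log2(FPKM + 0.1). It was 0.33 on TPM, 0.22 with GC correction, and 0.12 to 0.18 with single libraries left out. The median of all genes also moves with the setting, as given above for TPM. These values are not set against it here, so a larger median is not by itself a larger change of these genes. MYC ran from -0.31 to 0.066 with single libraries left out and stood at 0.35 with library 3 alone. Opposite in sign to the reported value were PPAN with GC correction (0.49) and with library 3 alone (0.39), and BOP1 with GC correction (0.19). Other ribosome biogenesis genes called lower, 19 as reported, were 6 on log2(FPKM + 0.1), 5 on TPM and 13 to 27 with single libraries left out.

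The deviations of same-numbered libraries from their group means correlated at -0.12, 0.05 and -0.15 for numbers 1, 2 and 3. Pairs of unlike number ran from -0.17 to 0.19. With 3 libraries a group, such deviations must sum to 0. These values therefore cannot show whether same-numbered libraries were paired. With the replicate block 15 genes were called higher and 0 lower. With the replicate block and GC correction these counts were 17 and 1, with a median of 0.22 and PPAN at 0.49. The shares of all tested genes called with the block are not given here, so these counts cannot be set beside them. With 3 libraries a group the spread, rather than the depth, limits what could be called.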

Other observations

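Several of these genes carry small nucleolar RNA genes in their introns. GENCODE 29 places 25 such genes inside 7 of the 42 on the same strand: NOP56, NOP58, GNL3, NCL, DKC1, WDR43 and PPAN. Of these 7 hosts 3 rose (NOP56, NOP58 and GNL3) and none fell, and of the 35 other genes 14 rose and 2 fell, so nearly the same share of each rose (42.9% and 40.0%, beside 20.6% of all tested genes). The snoRNAs themselves, which are short and not polyadenylated, were not analysed here.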
